A study of Ramazzottius varieornatus with 18 samples.

Results

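The transcripts described are 4 SAHS transcripts of the tardigrade Ramazzottius varieornatus, g1671.t1, g1672.t1, g1676.t1 and g1677.t1, out of 13 SAHS transcripts in the study's gene list and 14532 transcripts quantified. They were selected on measured values, their TPM level or its change over the juvenile days in the same 18 libraries that are described here, and no numerical threshold was given for the choice. Their levels, ranks, ratios and fold changes are therefore given as descriptions without a test, and tests are given only for other transcripts. The name abundant holds for 2 of the 4. Over the 18 libraries g1671.t1 averaged 14969 TPM (a level scaled to the same total in each library that takes account of transcript length) and g1676.t1 averaged 11895 TPM, whereas g1672.t1 averaged 264 TPM and g1677.t1 averaged 63.1 TPM. Of the 9 SAHS transcripts that were not chosen, 5 averaged more than g1672.t1, led by g1669.t1 with 5637 TPM and g1675.t1 with 2207 TPM.

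SAHS stands for secretory abundant heat soluble. These proteins are known from tardigrades, carry a secretion signal, stay in solution when heated, and have a barrel fold that resembles that of fatty acid-binding proteins. They were discovered together with the CAHS proteins, their cytoplasmic counterparts, in a search for proteins that remain soluble under the conditions of anhydrobiosis, the ametabolic state in which many limno-terrestrial tardigrades survive drying. No individual role is annotated for any of the 4 transcripts in the sources used here, so they are called by their identifiers, and sequences and genome positions were not used here.

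The libraries are whole-body total RNA of juveniles of strain YOKOZUNA-1, a line that was founded from a single individual, fed Chlorella vulgaris on agar and collected on 6 labelled days, Juvenile 2d to Juvenile 7d, with 3 libraries a day. The labels name no treatment, and the groups differ only in the labelled day. The labels do not say whether the libraries of a day came from separate cultures, nor how many animals each held, so the SDs and p-values measure only the spread between these libraries. As whole animals were extracted, fewer cells that express a transcript and less transcript per cell cannot be told apart.

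A library held a median of 3700490 estimated counts in total. Juvenile 7d replicate 3 was the shallowest (1250604) and Juvenile 6d replicate 1 the deepest (5095736). The 4 transcripts had whole-number counts in all 18 libraries (within 0.001), so no sign was seen of reads divided with another transcript. Whole counts cannot show that each read matched only 1 transcript. All 4 passed the filter on low counts that 10436 transcripts passed. Estimated counts ranged from 2707 to 41739 for g1671.t1, from 3432 to 30964 for g1676.t1, from 39 to 538 for g1672.t1 and from 6 to 97 for g1677.t1. Counting error is thus small for the first pair and large for g1677.t1, whose 6 counts in Juvenile 2d replicate 1 have a 95% exact Poisson interval of 2.2 to 13.1. Such intervals cover counting error only, as the amplified libraries carried no molecular identifiers.

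g1671.t1 was the steadiest of the 4 and lay among the 9 most abundant transcripts in every library. Its level was 15439, 15665 and 15899 TPM in the replicates of Juvenile 2d, 20182, 19169 and 18219 TPM at 3d, and 15212, 17220 and 15946 TPM at 4d. It was 7248, 9620 and 11951 TPM at 5d, 23370, 16176 and 9094 TPM at 6d, and 16453, 16026 and 6554 TPM at 7d. All 3 libraries of Juvenile 5d were below all 9 libraries of the earlier days, while the libraries of 6d and 7d spread over most of the range. Both the highest and the lowest level of g1671.t1 over all libraries fell in this late span, in Juvenile 6d replicate 1 and Juvenile 7d replicate 3, which are also the deepest and the shallowest library. The mean of the highest day, 3d (19190 ± 982 TPM, SD, n = 3), was 2.00 times that of the lowest, 5d (9606 ± 2351 TPM, SD, n = 3). In the order of the daily means no neighbouring pair of days was separated beyond its spread.

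g1676.t1 differed from g1671.t1 chiefly at Juvenile 2d. Its level there was 3149, 3133 and 3352 TPM, which placed it between rank 49 and 52 of all transcripts. At Juvenile 3d it was 14822, 13708 and 12332 TPM, at 4d 13178, 17272 and 15668 TPM, and at 5d 12793, 11814 and 11775 TPM. At 6d it was 7643, 12096 and 8982 TPM, and at 7d 22679, 21083 and 8626 TPM. From 3d on it ranked between 3 and 13 in every library. The 3 libraries of Juvenile 2d were below all 15 later ones, and the lowest later value, 7643 TPM, was still more than double any of them. The highest daily mean, 17463 ± 7694 TPM at 7d (SD, n = 3), was 5.44 times the mean of 2d, 3211 ± 122 TPM (SD, n = 3). Among the other 5 days no neighbours in the order of the means were separated beyond their spread.

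**Figure D1:**
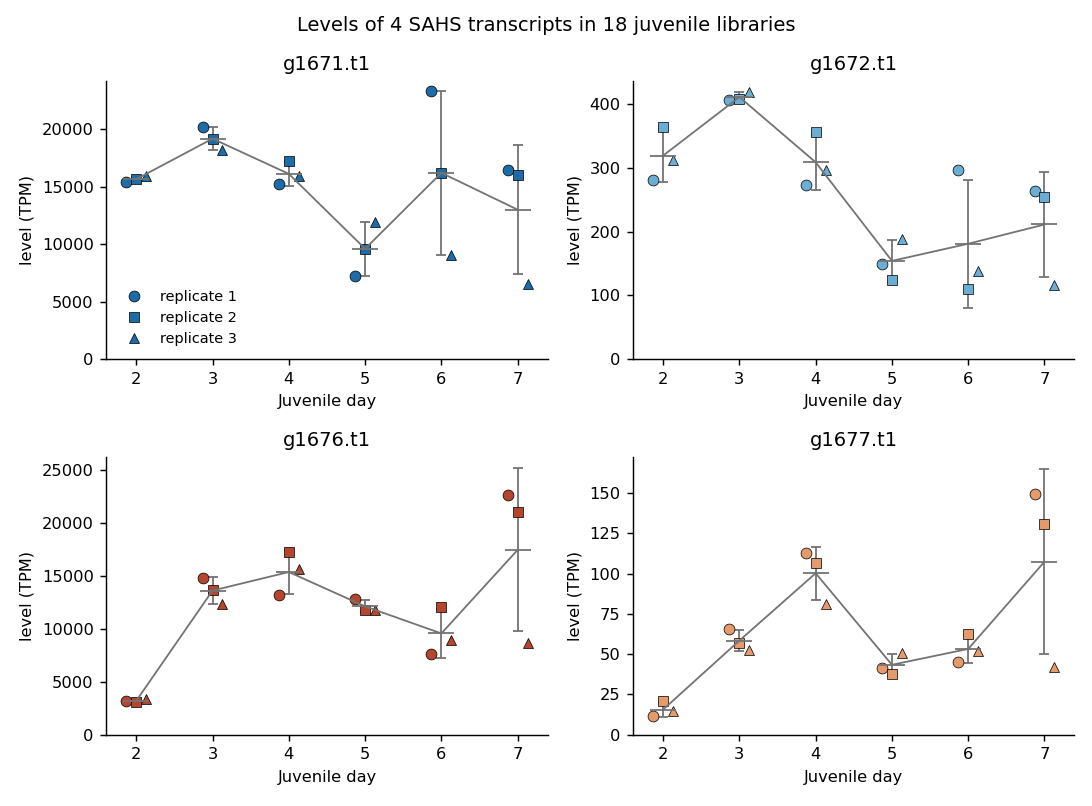
Levels (TPM, linear axes from 0) of g1671.t1, g1672.t1, g1676.t1 and g1677.t1 in the 18 libraries by juvenile day. Symbols mark replicates 1 to 3, bars the mean ± SD of 3 libraries. The libraries of Juvenile 2d are the lowest of all for g1676.t1 and g1677.t1, and Juvenile 7d replicate 3 lies far below the other 7d libraries in all 4 panels.

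g1672.t1 had a course like that of g1671.t1 at a far lower level. It was at 281, 364 and 313 TPM at Juvenile 2d, at 406, 408 and 419 TPM at 3d and at 274, 357 and 296 TPM at 4d. The later levels were 149, 124 and 189 TPM at 5d, 296, 109 and 138 TPM at 6d, and 264, 254 and 116 TPM at 7d. Juvenile 3d stood above every library of every other day, and all libraries of 2d to 4d stood above those of 5d. At 6d replicate 1 lay above replicates 2 and 3, as it did for g1671.t1, but replicate 2, which had 16176 TPM of g1671.t1, held the lowest g1672.t1 level of all libraries. The highest daily mean (3d, 411 ± 7.10 TPM, SD, n = 3) was 2.67 times the lowest (5d, 154 ± 32.8 TPM, SD, n = 3). In the order of the daily means the libraries of 3d were separated from those of 2d, and those of 4d from those of 7d.

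g1677.t1 was the least abundant of the 4 and varied the most between days. Its level was 11.6, 20.7 and 14.6 TPM at Juvenile 2d, 65.8, 56.7 and 52.8 TPM at 3d, and 112.9, 106.3 and 81.4 TPM at 4d. At 5d it was 41.5, 37.8 and 51.0 TPM, at 6d 45.3, 62.3 and 52.2 TPM, and at 7d 149.6, 130.6 and 42.0 TPM. As for g1676.t1, the 3 libraries of Juvenile 2d were below all others, and replicates 1 and 2 of 7d were the highest of all. It also had a peak at 4d, whose libraries were all above those of 3d, 5d and 6d. The 4d libraries of g1676.t1 were likewise above those of 5d and 6d, but overlapped those of 3d. The highest daily mean, 107 ± 57.4 TPM at 7d (SD, n = 3), was 6.87 times the lowest, 15.6 ± 4.66 TPM at 2d (SD, n = 3). In the order of the daily means the libraries of 4d were separated from those of 3d, and those of 5d from those of 2d. Its rank among all transcripts ranged from 1071 to 5046.

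The late levels of all 4 transcripts depended on Juvenile 7d replicate 3, the library with the fewest counts. Without it the mean of Juvenile 7d was 16239 TPM for g1671.t1 and 21881 TPM for g1676.t1, against 6554 and 8626 TPM in that library alone. For g1672.t1 the mean without it was 259 TPM, and for g1677.t1 it was 140 TPM, against 116 and 42.0 TPM in that library. The part of sequencing depth in this gap was not tested.

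As a share of all TPM, the 4 transcripts together made up between 1.53% and 3.95% of a library. Their daily mean was 1.92% at Juvenile 2d, 3.33% at 3d, 3.19% at 4d, 2.19% at 5d, 2.60% at 6d and 3.08% at 7d. At 2d most of it was g1671.t1 (1.57%), and the higher share of 3d and 4d came mainly with g1676.t1. The 9 other SAHS transcripts together held 1.11%, 1.23%, 0.727%, 0.785%, 1.09% and 0.616% on the 6 days in the same order. Their summed share was largest in Juvenile 6d replicate 1 (1.65%) and smallest in Juvenile 7d replicate 3 (0.323%).

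**Figure D2:**
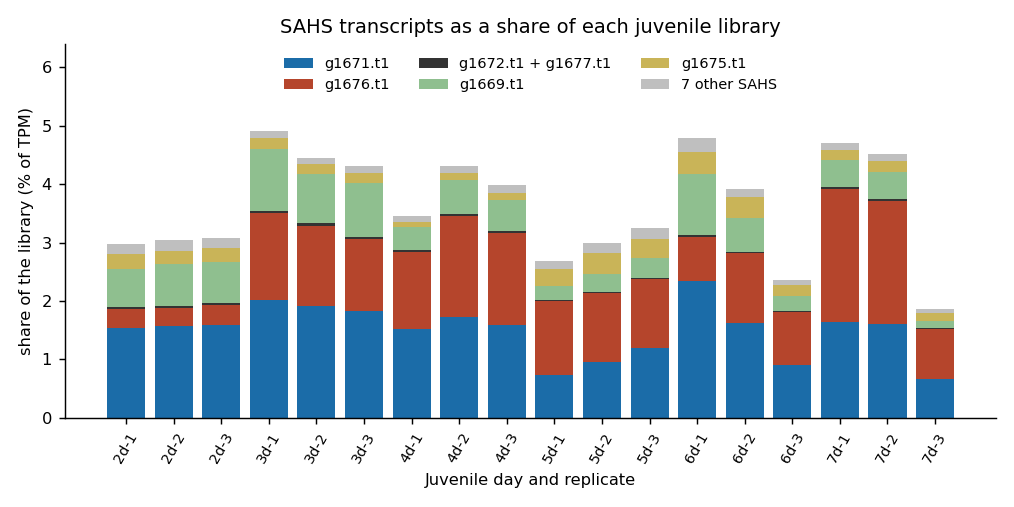
Share of each library (% of TPM) held by SAHS transcripts, as stacked bars for the 18 libraries in order of day and replicate. g1671.t1 and g1676.t1 make up most of every bar, and g1676.t1 is a thin band only in the 3 libraries of Juvenile 2d.

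The TPM values of these transcripts carry an effect of the quantification. kallisto divides counts by an effective length, which the authors' setting of a fragment length of 350 bases (SD 50) made short for transcripts of this size, and which was the same in all 18 libraries. The labels state a size selection at 200 bases, shorter than this setting, so the TPM levels of these short transcripts, and their ranks, depend on a length that may not be that of the sequenced fragments. For g1671.t1 a coding length of 510 bases became an effective length of 161 bases, and for g1676.t1 525 became 176. For g1672.t1 480 became 132, and for g1677.t1 426 became 83.6. Divided by coding length instead and scaled to the same total as TPM, the 18-library means were 10218 for g1671.t1, 8581 for g1676.t1, 157 for g1672.t1 and 26.6 for g1677.t1. The order of the 4 stayed, but the rank by the 18-library mean moved to 6 by coding length against 3 by TPM for g1671.t1, to 7 against 5 for g1676.t1, to 1037 against 610 for g1672.t1 and to 4869 against 2263 for g1677.t1. Changes between days in 1 transcript do not depend on its own length.

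The largest fold changes between successive days were those of g1676.t1 and g1677.t1 for Juvenile 3d against 2d, where g1671.t1 and g1672.t1 hardly differed. In edgeR, which scales the libraries by TMM factors, g1676.t1 was 1.80 ± 0.31 and g1677.t1 1.59 ± 0.38 higher at 3d on the log2 scale (SE, 3 libraries a day). g1671.t1 differed by 0.01 ± 0.42 and g1672.t1 by 0.08 ± 0.42. The SEs from edgeR given here and below rest on the spread over all 18 libraries, not only on the days compared. For g1671.t1 the SD was 230 TPM at 2d and 982 TPM at 3d, against 7138 TPM at 6d and 5596 TPM at 7d. In TPM all 4 had 3d libraries above all 2d libraries, where 59.2% of all transcripts tested did not overlap in either direction. The ratio of the means was 4.24 for g1676.t1, 3.74 for g1677.t1, 1.22 for g1671.t1 and 1.29 for g1672.t1. The scales differ in their centre, as the median over all transcripts was 0.24 higher at 3d on the log2(TPM + 1) scale and 0.01 higher in edgeR. Relative to the median, g1671.t1 was 0.05 higher and g1672.t1 0.13 higher on the TPM scale, so the separation of their 3d and 2d libraries is of the size that the median transcript showed.

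For Juvenile 4d against 3d, g1671.t1 and g1672.t1 had log2 fold changes of -0.42 ± 0.42 and -0.58 ± 0.42 in edgeR. g1676.t1 had 0.01 ± 0.30 and g1677.t1 had 0.60 ± 0.34. In TPM the 4d libraries of g1677.t1 were all above those of 3d, those of g1671.t1 and g1672.t1 were all below, and those of g1676.t1 overlapped. Non-overlap in either direction was found for 47.7% of all transcripts tested in this comparison.

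For Juvenile 5d against 4d all 4 transcripts had lower TPM in every 5d library than in any 4d library, where 55.6% of all transcripts tested did not overlap in either direction. The log2 fold change in edgeR was -1.02 ± 0.35 for g1677.t1, -0.83 ± 0.42 for g1672.t1, -0.56 ± 0.42 for g1671.t1 and -0.17 ± 0.30 for g1676.t1. On the log2(TPM + 1) scale the median transcript was lower by -0.20 at 5d, so the separation of g1676.t1 in TPM, whose log2 difference was -0.33, is close to this shift.

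After Juvenile 5d the libraries of successive days overlapped for all 4 transcripts. Non-overlap was found for 17.3% of the transcripts tested at 6d against 5d and for 5.89% at 7d against 6d. For 6d against 5d the log2 fold change in edgeR was 0.80 ± 0.42 for g1671.t1, 0.31 ± 0.42 for g1672.t1, -0.42 ± 0.30 for g1676.t1 and 0.23 ± 0.35 for g1677.t1. The first 2 rested on Juvenile 6d replicate 1, without which they were 0.12 and -0.62. For 7d against 6d it was -0.56 ± 0.42 for g1671.t1, -0.03 ± 0.42 for g1672.t1, 0.76 ± 0.30 for g1676.t1 and 0.94 ± 0.34 for g1677.t1. Without Juvenile 6d replicate 1 the values of g1671.t1 and g1672.t1 in this comparison were 0.09 and 0.88, so neither transcript has a direction here that holds without that library.

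The late juveniles (Juvenile 6d and 7d, 6 libraries) were also set against the early ones (2d and 3d, 6 libraries). Here g1676.t1 and g1677.t1 lay on the opposite side of 0 from g1671.t1 and g1672.t1. g1676.t1 was 0.70 ± 0.21 and g1677.t1 1.07 ± 0.26 higher on the log2 scale in edgeR, while g1671.t1 and g1672.t1 had values of -0.46 ± 0.30 and -1.07 ± 0.30. The signs stayed when any 1 library was left out, with ranges of 0.56 to 0.87 for g1676.t1, 0.90 to 1.24 for g1677.t1, -0.79 to -0.28 for g1671.t1 and -1.52 to -0.91 for g1672.t1. In TPM the late and early libraries of all 4 overlapped, and those of 5.13% of the transcripts tested did not. The early group joins Juvenile 2d and 3d, between which g1676.t1 and g1677.t1 differed the most.

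**Figure D3:**
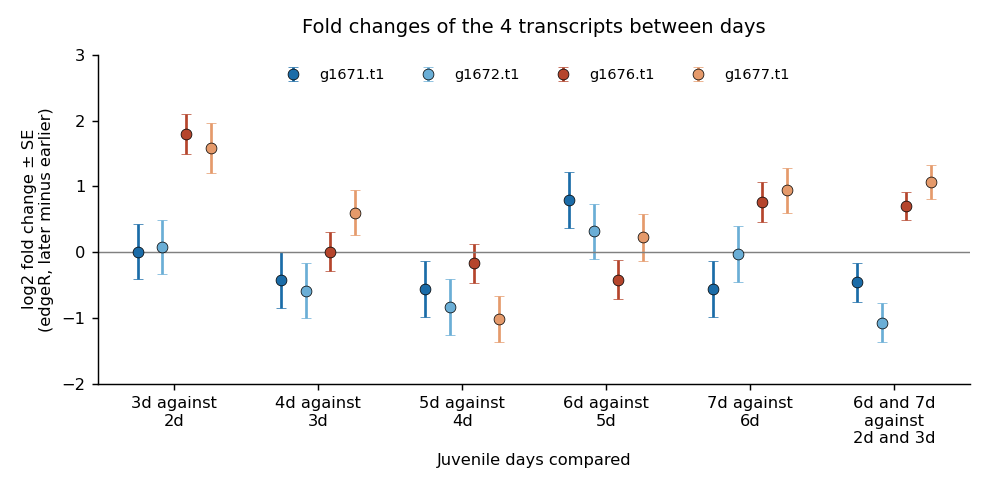
Log2 fold change ± SE (edgeR, later minus earlier) of the 4 transcripts in 6 comparisons of juvenile days, with the line at 0 marking no change. g1676.t1 and g1677.t1 lie at 1.80 and 1.59 for Juvenile 3d against 2d, where g1671.t1 and g1672.t1 lie near 0, and the same pairs lie on opposite sides of 0 for late against early juveniles.

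Over the 18 libraries the correlation was higher within the same pairs than between g1671.t1 and g1676.t1. As a description, the Pearson correlation of log2(TPM + 1) was 0.927 between g1676.t1 and g1677.t1 and 0.777 between g1671.t1 and g1672.t1, but 0.037 between g1671.t1 and g1676.t1. Spearman's coefficient was 0.886, 0.668 and 0.370 for the same pairs, so the contrast between them was smaller by rank. The libraries share their days and their depth, so these are not correlations over independent samples. With each day's mean taken away the Pearson values were 0.828, 0.770 and 0.561, so that within days g1671.t1 and g1676.t1 also moved in the same direction. The pairing of g1671.t1 and g1672.t1 was not particular to them. Without that step both had a higher Pearson value with g1669.t1, which was not chosen (0.938 and 0.784). Of 6488 transcripts, g1672.t1 took place 51 in likeness to g1671.t1, and g1671.t1 took place 176 in likeness to g1672.t1.

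The ratio of the levels spanned a narrower range within each pair than between g1671.t1 and g1676.t1. The ratio of g1671.t1 to g1672.t1 was between 43.0 and 77.5 in all libraries except 2 of Juvenile 6d, where replicate 2 reached 147.9, and its median was 55.3. The ratio of g1676.t1 to g1677.t1 was between 117 and 313 with a median of 199.8. The ratio of g1671.t1 to g1676.t1 was 4.88 ± 0.13 at Juvenile 2d, 1.41 ± 0.06 at 3d, 1.06 ± 0.09 at 4d, 0.80 ± 0.22 at 5d, 1.80 ± 1.10 at 6d and 0.75 ± 0.02 at 7d (SD, n = 3 each). g1671.t1 was the more abundant in 12 of 18 libraries, including all those of 2d, 3d and 6d, and g1676.t1 was the more abundant in all 3 libraries of 7d, replicate 3 included. g1672.t1 was above g1677.t1 in all 18.

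**Figure D4:**
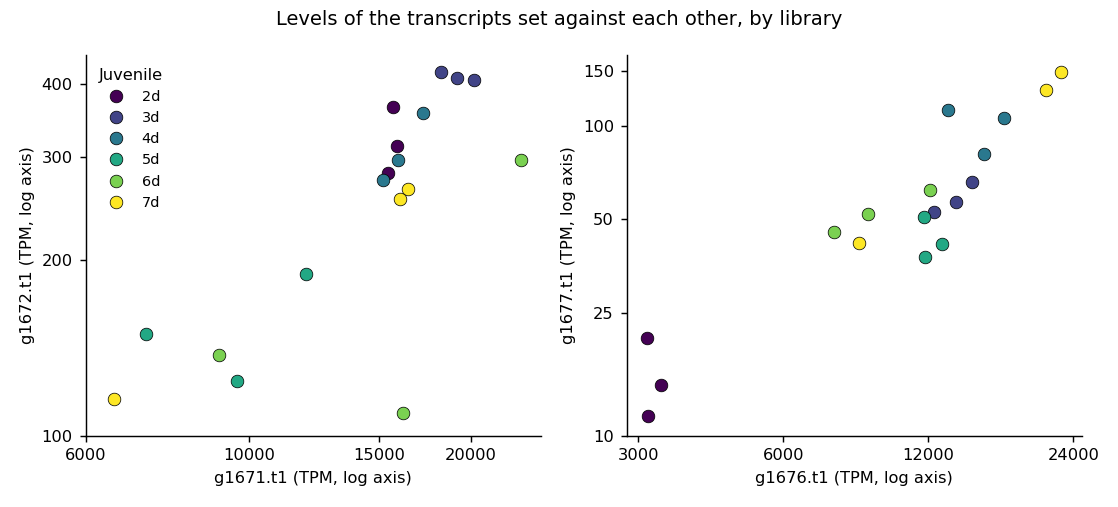
Levels of g1672.t1 against g1671.t1 (left) and of g1677.t1 against g1676.t1 (right), both axes in TPM on a log scale, 1 point for each of the 18 libraries, coloured by juvenile day. In the right panel the 3 libraries of Juvenile 2d lie apart at the lower left, and in the left panel Juvenile 6d replicate 2 lies below the trend of the others with 109 TPM of g1672.t1.

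The 9 other SAHS transcripts are the rest of the list and were not chosen. 6 of them passed the filter and were tested with edgeR, with p-values adjusted over all 10436 transcripts, and the other 3 (g1668.t1, g1680.t1 and g1807.t1) averaged 2.67, 1.10 and 0.631 TPM. For Juvenile 3d against 2d, 1 of 6 was called, against 25.8% of all transcripts tested. It was g1122.t1, at 226 ± 12.9 TPM at 3d and 671 ± 23.8 TPM at 2d, with a log2 fold change of -1.84 (edgeR adjusted p = 0.0159). For 4d against 3d, 1 of 6 was called, against 12.5% of all. It was g5852.t1, at 21.5 ± 10.5 TPM at 4d and 66.9 ± 8.01 TPM at 3d, with a log2 fold change of -1.80 (edgeR adjusted p = 0.0240).

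For Juvenile 5d against 4d, 3 of 6 of the other SAHS transcripts were called, against 24.8% of all transcripts tested, and all 3 rose. g1675.t1 was at 3233 ± 304 TPM at 5d and 1069 ± 236 TPM at 4d, with a log2 fold change of 1.77 (edgeR adjusted p = 0.00137). g1122.t1 was at 941 ± 141 TPM at 5d and 306 ± 43.6 TPM at 4d, with a log2 fold change of 1.80 (edgeR adjusted p = 0.0171), and g5852.t1 at 64.4 ± 18.2 TPM at 5d and 21.5 ± 10.5 TPM at 4d, with 1.75 (edgeR adjusted p = 0.0154). The 4 chosen transcripts had log2 fold changes from -1.02 to -0.17 in the same comparison, and 2 of the others that were not called, g1669.t1 (-0.60) and g1624.t1 (-0.54), were also negative, with all 5d libraries below those of 4d. The calls of g1122.t1 and g5852.t1 are near the limit. Without Juvenile 4d replicate 1 their adjusted p was 0.0529 and 0.0689 in edgeR, without 4d replicate 2 that of g1122.t1 was 0.0644, and without 5d replicate 2 that of g5852.t1 was 0.0538. Likewise, the call of g1122.t1 at 3d was lost without 3d replicate 1 or 2 (0.0539 and 0.0589), and that of g5852.t1 at 4d without 3d replicate 3 or 4d replicate 1 (0.0956 and 0.114).

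None of the 6 was called for Juvenile 6d against 5d, where 8.63% of all transcripts were called. At an unadjusted p under 0.05, g1669.t1 alone of the 6 passed in edgeR, against 2676 of 10436 transcripts. Neither DESeq2 nor limma on log2(TPM + 1) called any of the 6, against 1284 of 10426 and 543 of 10573 transcripts. For 7d against 6d edgeR called none of the 6 and 0% of all transcripts. At an unadjusted p under 0.05 it had 1059 transcripts, 3 of the 6 among them, and DESeq2 called 53, g1122.t1 among them. For late against early juveniles, where 46.1% of all were called, none of the 6 passed in edgeR, and g1669.t1 came nearest with a log2 fold change of -0.97 (edgeR adjusted p = 0.0513). At an unadjusted p under 0.05, 2 of the 6 passed in edgeR, g1669.t1 and g5852.t1, against 5569 of 10436 transcripts. DESeq2 called the same 2, against 4887 of 11452 transcripts. Without Juvenile 6d replicate 1 edgeR called 4 of the 6, g1122.t1, g1669.t1, g1681.t1 and g5852.t1, against 5791 of 10584 transcripts.

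g1669.t1 was the SAHS transcript that followed g1671.t1 most closely. It was at 6866 ± 303 TPM at Juvenile 2d, 9360 ± 1168 at 3d, 4978 ± 999.9 at 4d, 2909 ± 588 at 5d, 6295 ± 3959 at 6d and 3417 ± 1899 at 7d (SD, n = 3 each). Its correlation with g1671.t1 over the 18 libraries was 0.938, the highest of the 6488 transcripts with a mean above 10 TPM (place 12 by Spearman's coefficient), and it was 0.976 with the daily means taken away. Like g1671.t1 it was highest at 3d and lowest at 5d. Its level was below that of g1671.t1 in all 18 libraries and below that of g1676.t1 in 14, the exceptions being the 3 libraries of Juvenile 2d and Juvenile 6d replicate 1.

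**Figure D5:**
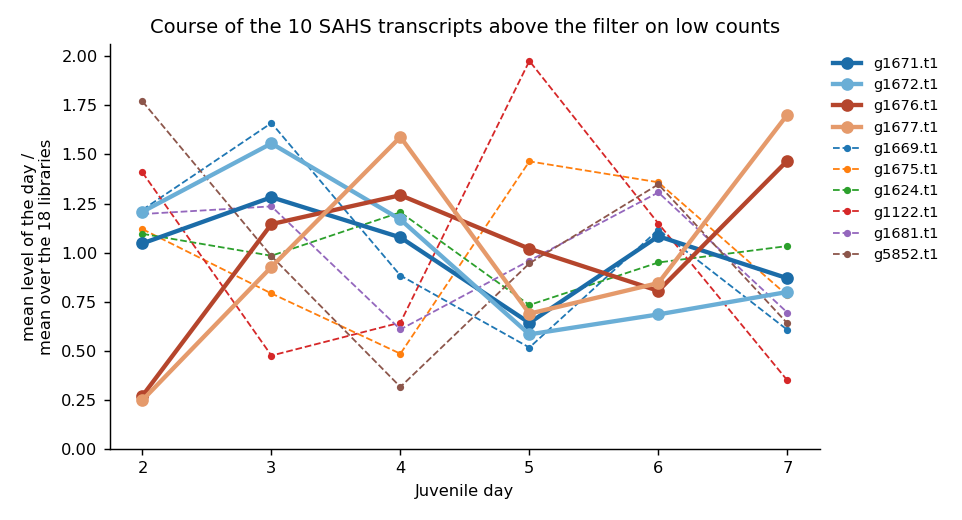
Daily mean level of each SAHS transcript above the filter on low counts, divided by its own mean over the 18 libraries, by juvenile day (thick lines, the 4 chosen transcripts, dashed lines, the 6 others). At Juvenile 5d the chosen transcripts stand between 0.583 and 1.02 times their own mean, g1122.t1 and g1675.t1 stand at 1.98 and 1.46 times theirs, and the 4 remaining others stand between 0.516 and 0.959.

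9 of the 13 SAHS transcripts have numbers between g1668 and g1681. The identifiers were not placed on a genome here, so the numbers are given as labels, not as positions. The 5 other transcripts with numbers in this span were not abundant. g1670.t1 averaged 33.7 TPM, g1673.t1 1.07 TPM, g1674.t1 1.35 TPM and g1678.t1 0.047 TPM, and g1679.t1 was listed at 0 in all 18 libraries. Transcripts with adjacent numbers could differ widely in level, as g1671.t1 and g1672.t1 did by a median of 55.3 times.

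Among all transcripts with a mean above 10 TPM, those most like the 4 were mostly not SAHS. After g1669.t1 the nearest to g1671.t1 were g311.t1 (r = 0.879), g9485.t1 (0.878), g2935.t1 (0.871) and g11208.t1 (0.867). The nearest to g1672.t1 were g13707.t1 (0.980), g5473.t1 (0.957), g4076.t1 (0.955), g10465.t1 (0.954) and g13013.t1 (0.953). g1676.t1 and g1677.t1 shared their nearest transcript, g12630.t1, with r = 0.963 and 0.970 and a mean of 358 TPM. The next for g1676.t1 were g1386.t2 (0.929), g11820.t1 (0.928), g1677.t1 (0.927) and g6490.t1 (0.920), and for g1677.t1 they were g2171.t1 (0.942), g9563.t1 (0.935), g4735.t1 (0.935) and g3860.t1 (0.934). These are Pearson correlations of log2(TPM + 1) over 18 libraries of 6 days, and none of these transcripts has a name in the sources used here.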

How the data were processed

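The 18 libraries were grouped by the day and replicate in their labels (the methods give days 3–7 for the collection). SMARTer-amplified mRNA was sequenced as single-end reads. The authors quantified the predicted coding sequences with kallisto 0.42.4 (the labels also name 0.44.0) and deposited estimated counts, without normalization, and TPM values for each library. In a library, 92.0% to 94.3% of estimated counts were whole (tolerance 0.001). All columns were assigned to a sample, and no 2 libraries were identical.

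The transcripts and lists were chosen with earlier results of these data known. Named one by one were the 4 transcripts, the 9 other SAHS, transcripts with numbers between theirs, and for each of the 4 the 5 with the highest correlation among those above a mean of 10 TPM.

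Rounded estimated counts of all 18 libraries went into a quasi-likelihood F test with the day as its term (edgeR 4.0.16, R 4.3.3, TMM factors, filterByExpr with a minimum count of 10), with Benjamini-Hochberg adjustment over 10436 transcripts and calls at an adjusted p of up to 0.05. The SE of a log2 fold change was taken as its size over the square root of F. The script was tested on simulated data. DESeq2 1.42.0 and limma 3.58.1 on log2(TPM + 1) or log2(TPM + 0.1) were alternatives, as were RLE and upper-quartile scaling, no filter, a fit with the replicate number, fits of single pairs of days and each library left out. Levels were recomputed as CPM with TMM factors, as TPM outside the 100 most abundant transcripts and as medians. Division by coding length was added after seeing the data. Descriptions were computed in Python 3.11.15 with pandas 2.3.3.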

Additional observations from a re-analysis of the deposited data

How the results depend on the processing

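The late levels rest on Juvenile 7d replicate 3 (1250604 counts) and Juvenile 6d replicate 1, and g1677.t1 on few counts. Directions of g1676.t1 and g1677.t1 for 3d against 2d and for late against early juveniles were positive in every fit run. The cause of the differences below was not tested. Leaving out a library also leaves fewer samples. Each comparison was also fitted on its own days alone. edgeR then called 4630 of 9477 transcripts for 3d against 2d, with 4 other SAHS, and 3006 of 9841 for 4d against 3d, with 4. For 5d against 4d it called 3831 of 9942, with 5 other SAHS, of which g1624.t1 was lower (-0.524, edgeR adjusted p = 0.0491). For 6d against 5d it called 10 of 9805. limma called 543 (log2(TPM + 1)) and 474 (log2(TPM + 0.1)) for 6d against 5d, and 1 for 7d against 6d with 0.1 added. With 1 added it called 5 other SAHS for 5d against 4d, against 2713 of 10573 transcripts. For 7d against 6d DESeq2 called 53, with 1 other SAHS. For late against early juveniles the other SAHS called were 1 with RLE scaling, 1 with either limma fit and 1 with the replicate block. They were 2 with upper-quartile scaling and 2 with DESeq2. In these fits 4567 to 4887 transcripts were called in all. The share of called transcripts that were higher was 72.1% in limma and 48.7% with upper-quartile scaling against 59.1%. That share was 75.5% in limma against 54.3% for 3d against 2d and 39.3% against 52.2% for 5d against 4d. On the log2(TPM + 1) and log2(TPM + 0.1) scales, 3d against 2d gave 0.291 and 0.291 for g1671.t1, 0.372 and 0.373 for g1672.t1, 2.081 and 2.081 for g1676.t1, and 1.869 and 1.931 for g1677.t1. 4d against 3d gave -0.252 and -0.252 for g1671.t1 and -0.421 and -0.422 for g1672.t1, and 5d against 4d -0.334 and -0.334 for g1676.t1. Relative to the mean of 18 libraries, the level at 2d became with TMM factors 1.262 for g1671.t1, 1.452 for g1672.t1, 0.345 for g1676.t1, 0.323 for g1677.t1 and 0.86 for their sum, and outside the 100 most abundant transcripts 1.086 for g1671.t1, 0.286 for g1676.t1 and 0.74 for the sum, against 1.05, 1.21, 0.27, 0.248 and 0.707 in TPM. With TMM factors g1671.t1 at 4d was 0.948 and g1676.t1 at 5d 1.075, and outside the 100 most abundant g1672.t1 at 3d was 1.602. By coding length the 18-library means were 10218, 157, 8581, 26.6 and 18983 for g1671.t1, g1672.t1, g1676.t1, g1677.t1 and the sum, and g1671.t1 at 2d was 1.073 times its mean. The median of 3 libraries moved no daily level beyond its spread.

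Leaving out each library in turn gave 1665 to 3656 called transcripts for 3d against 2d, 490 to 2265 for 4d against 3d and 1640 to 3497 for 5d against 4d. It gave 253 to 2809 for 6d against 5d, 0 to 446 for 7d against 6d and 4163 to 5791 for late against early juveniles. With all libraries the numbers were 2694, 1308, 2591, 901, 0 and 4806. Except for 7d against 6d, each upper end came without Juvenile 6d replicate 1, also where 6d was not among the days compared. The other SAHS called were 0 to 3, 0 to 3, 1 to 4, 0 to 1 and 0 to 3 for the successive days and 0 to 4 for late against early juveniles. For 7d against 6d it was the omission of Juvenile 6d replicate 3 that gave 446 and 3. The log2 fold changes ranged for g1672.t1 from -0.009 to 0.217 and for g1677.t1 from 1.425 to 1.874 (3d against 2d), for g1671.t1 from -0.505 to -0.338 and for g1672.t1 from -0.735 to -0.462 (4d against 3d), for g1676.t1 from -0.312 to -0.047 (5d against 4d), for g1671.t1 from 0.119 to 1.164 and for g1672.t1 from -0.62 to 0.637 (6d against 5d), for g1671.t1 from -0.918 to 0.09 and for g1672.t1 from -0.347 to 0.88 (7d against 6d), and for g1672.t1 from -1.521 to -0.909 (late against early). The 0.09 reversed the sign of g1671.t1 and came without Juvenile 6d replicate 1.

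The replicate numbers showed no sign of pairing the samples, though correlations with such wide ranges cannot exclude it. Deviations from the daily means correlated between -0.305 and 0.193 for 45 same-numbered pairs of libraries (median -0.036) and between -0.367 and 0.407 for 90 others (median 0.0098). With the replicate block, edgeR called 2402, 1075, 2305, 667 and 0 transcripts for the successive days and 4567 for late against early juveniles, where the 4 transcripts had log2 fold changes of -0.53, -1.14, 0.67 and 1.03 for g1671.t1, g1672.t1, g1676.t1 and g1677.t1.

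Of the 5 transcripts most like each of the 4, 1 to 3 were found again with untransformed TPM, with Spearman's coefficient or with deviations from the daily means, so these lists depend on the measure.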

Other observations

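The other tardigrade-specific families of the study's list were counted with the same edgeR fit and adjustment over all transcripts. Of 15 CAHS transcripts, the cytoplasmic counterparts of SAHS, 12 were tested. For Juvenile 3d against 2d 1 was higher and 1 lower (25.8% of all transcripts tested were called), for 4d against 3d 1 was lower (12.5% of all), for 5d against 4d 4 were higher and 1 lower (24.8% of all), and for late against early juveniles 2 were higher and 4 lower (46.1% of all). For 6d against 5d edgeR called none (8.63% of all), with 4 at an unadjusted p under 0.05 (2676 of 10436 in all). DESeq2 called 3 (1284 of 10426 in all) and limma on log2(TPM + 1) 1 (543 of 10573 in all). For 7d against 6d edgeR called none (0% of all), with 2 at an unadjusted p under 0.05 (1059 of 10436 in all). DESeq2 called 1 (53 of 6850 in all) and limma 0 (0 of 10573 in all). The most abundant, g3884.t1, had 1711 ± 957 TPM at 4d and 7112 ± 1192 TPM at 3d (log2 fold change -2.19, edgeR adjusted p = 0.00561), and 5686 ± 1696 TPM at 5d (1.90 against 4d, edgeR adjusted p = 0.00572). Dsup (g4591.t1), a protein that associates with chromatin and protects DNA, had 108.9 ± 12.01 TPM at 3d and 52.8 ± 5.48 TPM at 2d (0.75, edgeR adjusted p = 0.00383), and fell by 0.60 on the log2 scale at 5d against 4d (edgeR adjusted p = 0.0115). Of the mitochondrial proteins, MAHS (g6834.t1) was higher in late than in early juveniles (2.33, edgeR adjusted p = 0.000168) and LEAM (g2978.t1) lower (-1.06, edgeR adjusted p = 0.000831).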
